A study of Mus musculus with 24 samples.

Results

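The genes described here mark the 2 ends of the liver lobule: Glul, Slc1a2, Cyp2e1, Axin2, Rgn and Lect2 for hepatocytes around the central vein (pericentral), and Cyp2f2, Hal, Hsd17b13 and Gls2 for hepatocytes around the portal tract (periportal). They were picked by gene symbol, and all 10 were found among the 15160 genes of the deposited count table. All 10 also passed the filter on low counts that left 13336 genes for testing. The data are QuantSeq 3′ libraries of whole liver RNA, 1 per mouse, in which reads come from near the 3′ end of each transcript. The 24 mice were males labelled as 5 months old, in 4 groups of 6. WT mice carried the floxed Nfe2l2 alleles alone (NRF2fl/fl), and NRF2 KO mice (NRF2fl/(alb)) carried the same floxed alleles plus Cre driven by the albumin promoter. This design is meant to delete the gene for the transcription factor NRF2 in hepatocytes. The paper proposes liver macrophages as the most likely source of the Nfe2l2 mRNA that remained. Within each genotype the mice ate an elemental diet from 8 weeks of age and for 8 weeks, in which methionine made up 0.86% in the control diet (Con) and 0.17% under methionine restriction (MR). In the paper's methods for its 8-week experiment, calorimetry and a return to home cages came between these 8 weeks and tissue harvest. The study left out the mice labelled WT_CON_7604 and WT_MR_7612 as outliers of a principal component analysis, and the comparisons below use the other 22 mice: 5 WT mice on each diet and 6 NRF2 KO mice on each diet. The total count on genes ranged over these 22 mice from 6197291 to 22068338 reads.

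Blood enters the liver lobule at the portal tract and leaves by the central vein, and hepatocytes along this path carry out different tasks. Endothelial cells of the central vein secrete Wnt ligands and R-spondin, which keep beta-catenin active with TCF/LEF factors in the neighbouring hepatocytes and sustain pericentral genes such as glutamine synthetase. Periportal hepatocytes are known for making glucose and urea and for breaking down amino acids such as histidine and glutamine. In RNA from whole liver, fewer cells of a zone and less RNA per cell cannot be told apart.

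Levels are given as CPM, a count relative to the whole of its library, after TMM scaling, edgeR's normalisation for differences in library composition. Levels are compared between mice for 1 gene and not between genes. The tissue label was checked on hepatocyte markers, of which 6 of 7 listed were in the table, with Alb as the most abundant, and Tf was not found under that symbol. Their summed level had a median of 108463 CPM in WT Con, 86872 CPM in WT MR, 123065 CPM in NRF2 KO Con and 106359 CPM in NRF2 KO MR.

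3 libraries stood apart. In the mouse WT_CON_7604, left out by the study, Glul was at 317 CPM, Slc1a2 at 29.3 CPM, Cyp2e1 at 842 CPM and Rgn at 399 CPM. In WT_MR_7612, also left out, the levels of the same genes were 201, 22.1, 951 and 289 CPM. For these 4 pericentral genes both mice lay below every one of the 22 mice, whereas Axin2, at 3.01 and 2.77 CPM, and Lect2, at 89.8 and 87.7 CPM, lay within the range of those mice, Lect2 near its lowest value of 87.6 CPM. Levels of the left-out mice were scaled by TMM over all 24 mice and those of the others over the 22. The periportal gene Hsd17b13, at 772 and 1005 CPM, was higher in both than in any of the 22 mice, while Cyp2f2, Hal and Gls2 lay within the range of those mice. The third is the library labelled WT_CON_7607, in which Nfe2l2, the targeted gene, was at 324 CPM. The other 4 WT Con mice had 106 to 125 CPM of Nfe2l2 and the WT MR mice 94.0 to 107 CPM, while the NRF2 KO mice had 202 to 339 CPM, so this library lay among the NRF2 KO libraries for that gene. The reads come from the 3′ end of Nfe2l2 and may lie outside the deleted stretch, so they do not check the deletion. These counts were higher in NRF2 KO, while the paper's PCR of the excised part gave a lower level there. Among the 10 genes, leaving out this library changed no call, and it changed the direction of 3 values, for Hal on MR in WT and for Gls2 in the genotype comparison on Con and in the interaction, which are given below. Over all genes, its omission raised the calls from 276 to 314 for genotype on Con, from 258 to 336 on MR and from 6 to 12 for the interaction. No other single omission gave higher counts in these comparisons, and the reason was not tested.

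For 8 of the 10 genes a promoter sequence, from 250 bases before to 50 bases after the transcription start in RefSeq (GRCm38.p6), was used. Both strands were searched for the TCF/LEF core in the forms CTTTGAT and CTTTGAA, for the antioxidant response element core TGACNNNGC of NRF2, for the ATF4 element core TGATGNAAT and for TATAAA. The 2 forms of the TCF/LEF core share all letters but the last. Shown are the promoters of 3 pericentral genes that fell together on MR in NRF2 KO liver, Glul (chr1:153899679-153899978, plus strand), Slc1a2 (chr2:102706188-102706487, plus strand) and Lect2 (chr13:56548489-56548788, minus strand), and that of the periportal gene Hal (chr10:93488518-93488817, plus strand), each 5′ to 3′ in the direction of the gene with matches in capitals.
Glul: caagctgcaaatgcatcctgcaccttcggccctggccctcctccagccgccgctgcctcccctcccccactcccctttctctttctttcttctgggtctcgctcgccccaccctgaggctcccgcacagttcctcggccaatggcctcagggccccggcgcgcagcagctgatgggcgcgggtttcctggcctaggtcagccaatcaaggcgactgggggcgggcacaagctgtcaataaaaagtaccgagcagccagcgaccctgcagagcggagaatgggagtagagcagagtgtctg
Slc1a2: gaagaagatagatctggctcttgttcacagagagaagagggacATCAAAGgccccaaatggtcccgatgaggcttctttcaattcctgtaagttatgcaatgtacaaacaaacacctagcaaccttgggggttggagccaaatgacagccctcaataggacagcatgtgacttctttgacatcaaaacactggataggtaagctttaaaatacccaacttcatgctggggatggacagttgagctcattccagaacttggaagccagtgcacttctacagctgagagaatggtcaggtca
Lect2: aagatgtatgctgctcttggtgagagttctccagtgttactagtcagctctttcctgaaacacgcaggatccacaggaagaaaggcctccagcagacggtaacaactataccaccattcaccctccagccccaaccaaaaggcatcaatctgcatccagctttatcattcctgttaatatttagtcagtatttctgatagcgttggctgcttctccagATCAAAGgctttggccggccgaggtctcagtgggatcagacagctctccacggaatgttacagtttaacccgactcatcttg
Hal: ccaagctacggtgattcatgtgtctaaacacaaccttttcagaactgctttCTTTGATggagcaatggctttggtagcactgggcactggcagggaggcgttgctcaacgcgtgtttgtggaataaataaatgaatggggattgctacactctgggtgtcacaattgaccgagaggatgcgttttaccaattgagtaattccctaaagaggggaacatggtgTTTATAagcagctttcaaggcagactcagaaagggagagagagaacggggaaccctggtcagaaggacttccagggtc
The capitals mark ATCAAAG, the TCF/LEF core read on the opposite strand, from position -207 relative to the start in Slc1a2 and from -32 in Lect2. In Hal they mark CTTTGAT from -199 and TTTATA, the TATA sequence on the opposite strand, from -28. The window of Glul held none of the motifs. Cyp2e1 held CTTTGAA at -135 and TATAAA at -31, and Hsd17b13 held TGATGCAAT at -206 and TGACAGGGC from base 19 of the transcript. Axin2 and Cyp2f2 held none. Thus 4 of 8 windows held a TCF/LEF core, 3 of them pericentral and 1 periportal, while 8.65% of all 32851 promoters of the table held either form, 12.4% held the antioxidant core, 0.965% the ATF4 core and 13.6% TATAAA. A match is a string of letters and does not show binding, and the start of Slc1a2 used by RefSeq lies inside the longer gene model of GENCODE.

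**Figure D1:**
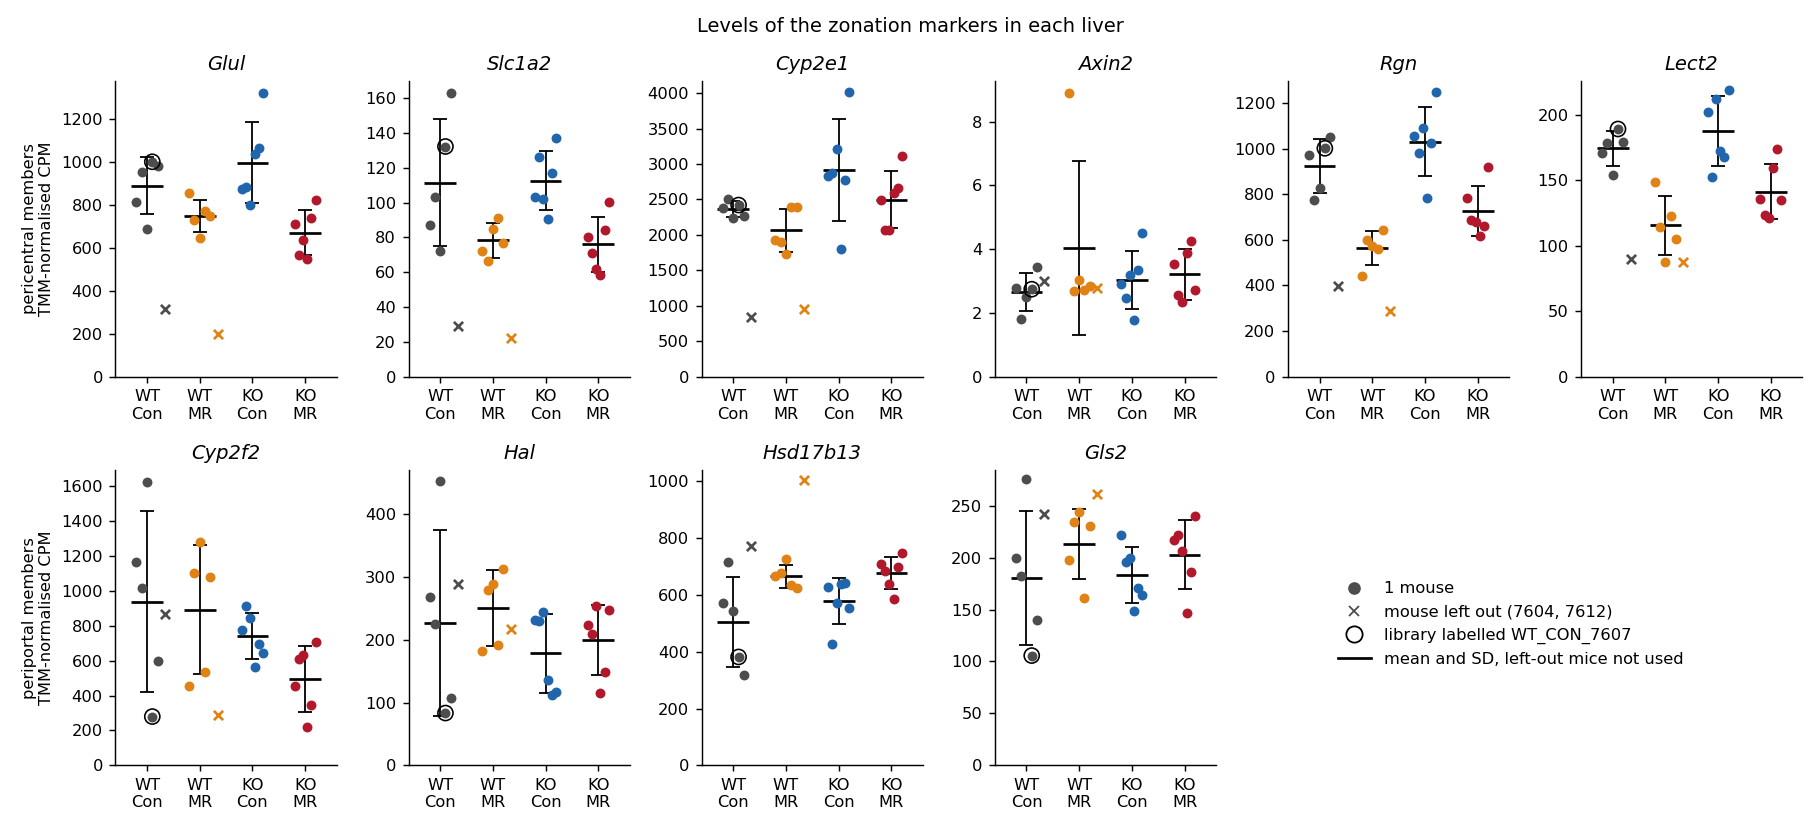
TMM-normalised CPM (vertical axis, linear from 0) of the 6 pericentral and 4 periportal genes in each mouse of the 4 groups, with the mean and SD of the mice used. Crosses are the mice left out by the study, and the ring marks the library labelled WT_CON_7607. Rgn and Lect2 in WT are the cases in which all MR mice lie below all Con mice.

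Part of the pericentral set was lower on methionine restriction in each genotype, and no periportal gene passed the test. Of the 6 pericentral genes, Rgn and Lect2 fell in WT on MR, and Glul, Slc1a2, Rgn and Lect2 fell in NRF2 KO on MR. Over all genes tested, edgeR's quasi-likelihood test and Benjamini-Hochberg adjustment called 13.8% in WT (6.91% lower on MR) and 12.6% in NRF2 KO (6.34% lower on MR). The median log2 fold change of the pericentral genes was -0.38 in WT and -0.46 in NRF2 KO, that of the periportal genes 0.19 and 0.15, and that of all genes -0.01 and 0.00. The genes were chosen with earlier results of these data known, and these counts and medians are descriptions. With all 24 mice in the model, the 2 calls in WT held and none of the 4 in NRF2 KO did. Their adjusted p rose to between 0.0941 and 0.277 in edgeR, with log2 fold changes that moved by less than 0.01 while the NRF2 KO mice were the same and the 4 groups share 1 estimate of the spread. With scaling by library size only, Slc1a2 (adjusted p 0.133 in edgeR) and Lect2 (adjusted p 0.187 in edgeR) were not called in NRF2 KO, and the other 4 calls held.

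Glul (chr1:153899944-153909723, plus strand, 7 exons) encodes glutamine synthetase, which joins ammonia to glutamate in the last hepatocytes before the central vein. Its level was 816, 954, 691, 1003 and 984 CPM in the 5 WT Con mice and 856, 732, 649, 774 and 749 CPM in the 5 WT MR mice. These groups overlapped, the lowest WT Con mouse lying below 4 of the 5 WT MR mice. In NRF2 KO Con the lowest, median and highest levels were 802, 961 and 1323 CPM, and in NRF2 KO MR they were 550, 674 and 826 CPM. Only the highest NRF2 KO MR mouse reached into the range of NRF2 KO Con. The log2 fold change on MR was -0.57 (SE 0.12, n = 6 and 6) in NRF2 KO, with an adjusted p of 0.00328 by edgeR's quasi-likelihood test and Benjamini-Hochberg adjustment, and -0.24 (SE 0.13, n = 5 and 5) in WT, with an adjusted p of 0.238 by the same edgeR test. The difference between these effects was -0.33 (95% interval -0.70 to 0.04) with an adjusted p of 0.707 in the edgeR interaction test, so that the response was not shown to differ by genotype.

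Slc1a2 (chr2:102658659-102790784, plus strand) encodes a glutamate transporter of the plasma membrane, which brings the substrate of glutamine synthetase into the same cells. It was at 87.0, 103, 71.97, 132 and 163 CPM in WT Con and at 72.4, 66.3, 84.6, 91.2 and 77.0 CPM in WT MR. The 2 highest values were the library labelled WT_CON_7607 and mouse WT_CON_7608, and 2 of the other 3 WT Con mice lay within the range of WT MR. In NRF2 KO it ran from 90.9 through a median of 110.1 to 137 CPM on Con and from 58.3 through 75.8 to 101 CPM on MR, with 1 NRF2 KO MR mouse above the lowest NRF2 KO Con mouse. Slc1a2 fell by 0.57 (log2, SE 0.17) on MR in NRF2 KO, with an adjusted p of 0.0281 by edgeR's quasi-likelihood test and Benjamini-Hochberg adjustment. In WT its log2 fold change was -0.51 (SE 0.18), with an adjusted p of 0.0629 by the edgeR test, and DESeq2 called it with an adjusted p of 0.0400. The call in NRF2 KO was lost without any 1 of the mice KO_CON_7618, KO_CON_7623, KO_MR_7627, KO_MR_7628 and KO_MR_7629, with log2 fold changes between -0.66 and -0.50 over all single omissions, and Slc1a2 was called in WT without mouse WT_CON_7602 or mouse WT_CON_7605. Without mouse WT_CON_7608 the WT value was -0.33.

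Rgn (chrX:20549787-20562089, plus strand, 7 exons) encodes regucalcin, a calcium-binding lactonase. Its level was 971, 773, 828, 1001 and 1052 CPM in WT Con and 441, 600.1, 572, 561 and 642 CPM in WT MR. Every WT MR mouse lay below every WT Con mouse, and such a separation, in either direction, held for 9.32% of all genes tested. In NRF2 KO the lowest, median and highest values were 782, 1042 and 1248 CPM on Con and 618, 684 and 919 CPM on MR, and 2 NRF2 KO MR mice lay above the lowest NRF2 KO Con mouse. Rgn fell by 0.72 (log2, SE 0.13) in WT and by 0.51 (SE 0.11) in NRF2 KO, with adjusted p of 0.000563 and 0.00483 by edgeR's quasi-likelihood test and Benjamini-Hochberg adjustment. Without the library labelled WT_CON_7607 the WT log2 fold change was -0.68.

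Lect2 (chr13:56542464-56548502, minus strand, 4 exons) encodes a protein that hepatocytes secrete into blood. Its level was 171, 179, 154, 189 and 179 CPM in WT Con and 148, 114, 87.6, 123 and 105 CPM in WT MR. Again all WT MR mice lay below all WT Con mice, though the nearest pair, at 148 and 154 CPM, were close. The NRF2 KO mice ran from 152 through 187 to 219 CPM on Con and from 121 through 135 to 174 CPM on MR. The NRF2 KO groups overlapped for Lect2 as for the other 9 genes, where 5.45% of all genes tested did not overlap. Lect2 fell by 0.59 (log2, SE 0.12) in WT and by 0.41 (SE 0.11) in NRF2 KO, with adjusted p of 0.0027 and 0.0192 by edgeR's quasi-likelihood test and Benjamini-Hochberg adjustment. The NRF2 KO call was lost without mouse KO_MR_7628. For Rgn and Lect2 in WT the two-sided exact permutation test on log2 CPM gave p = 0.0079, the smallest that 5 mice against 5 allow. Full separation of the groups fixes this value, so it adds nothing to the separation. Unadjusted over 40 tests, the same permutation test also gave p under 0.05 in comparisons without an edgeR call. These were Hsd17b13 on MR in WT (0.048) and NRF2 KO (0.03), Cyp2f2 on MR in NRF2 KO (0.03) and Rgn between genotypes on MR (0.0087).

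The 2 remaining pericentral genes did not pass the test in either genotype. Cyp2e1 (chr7:140763739-140774987, plus strand, 9 exons), a cytochrome P450 that oxidises ethanol and paracetamol, was at 2381, 2503, 2235, 2421 and 2271 CPM in WT Con and at 1923, 1893, 1726, 2387 and 2393 CPM in WT MR. 3 of the WT MR mice lay below all WT Con mice and the other 2 within their range. Cyp2e1 ran in NRF2 KO from 1796 through 2854 to 4011 CPM on Con and from 2063 through 2544 to 3114 CPM on MR, and its log2 fold change on MR was -0.19 (95% interval -0.50 to 0.11) in WT and -0.22 (-0.50 to 0.06) in NRF2 KO. The latter was -0.11 without mouse KO_CON_7623. Axin2 (chr11:108920349-108950783, plus strand, 11 exons), which Wnt signalling induces and whose protein restrains beta-catenin, was at 2.78, 1.82, 2.51, 2.75 and 3.45 CPM in WT Con and at 8.90, 2.70, 3.03, 2.71 and 2.85 CPM in WT MR. The WT MR mice were thus within 2.70 to 3.03 CPM apart from mouse WT_MR_7609. Axin2 ran in NRF2 KO from 1.79 through 3.04 to 4.51 CPM on Con and from 2.33 through 3.12 to 4.27 CPM on MR. The log2 fold change of Axin2 on MR, 0.62 (95% interval -0.01 to 1.24) in WT, became 0.07 without mouse WT_MR_7609, and in NRF2 KO it was 0.11 (95% interval -0.45 to 0.68). Over single omissions the NRF2 KO value ran from -0.0034 (KO_CON_7621) to 0.25 (KO_CON_7623).

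**Figure D2:**
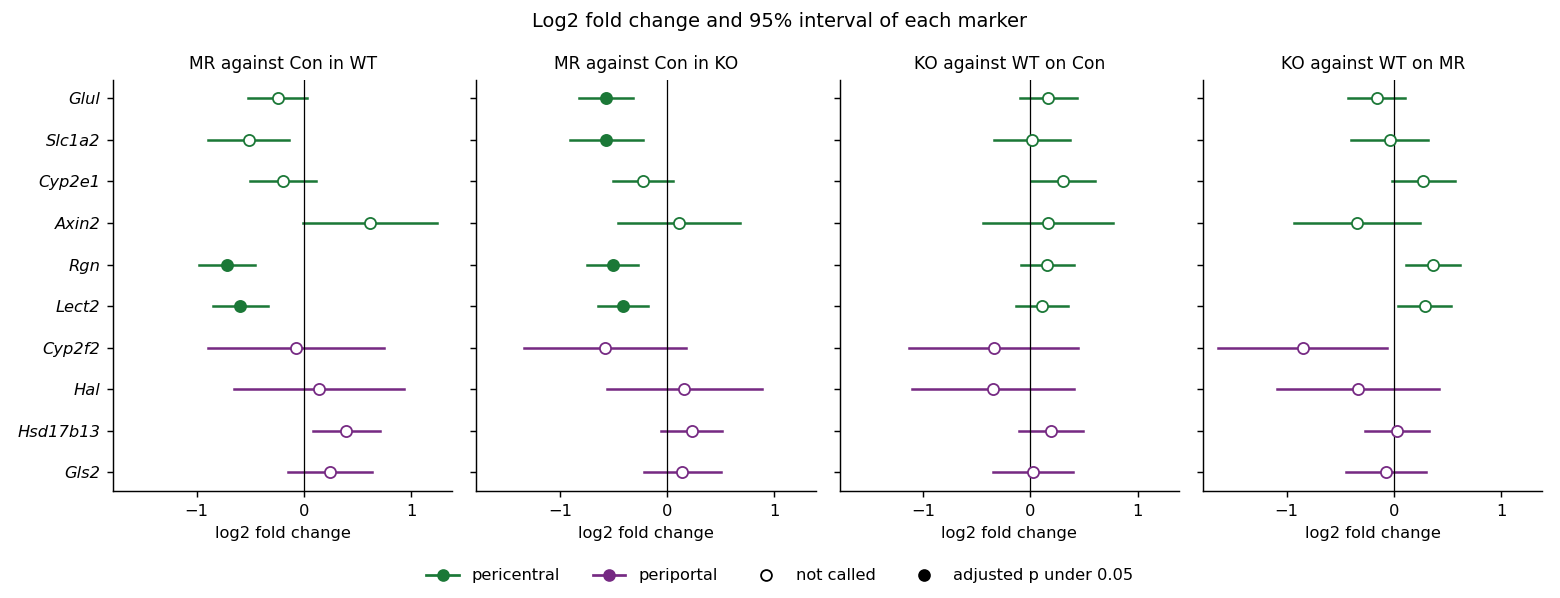
Log2 fold change (horizontal axis) with its 95% interval for each gene in the 4 comparisons, pericentral genes in green and periportal genes in purple. Filled points passed an adjusted p of 0.05 in edgeR's test: Rgn and Lect2 for MR in WT, those and Glul and Slc1a2 for MR in NRF2 KO, and none for genotype.

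Cyp2f2 (chr7:27119909-27133660, plus strand, 10 exons), a periportal cytochrome P450, was at 1164, 1018, 1622, 280 and 596 CPM in WT Con and at 457, 1100.4, 1278, 536 and 1080 CPM in WT MR. The WT Con mice covered the whole range of WT MR, with the library labelled WT_CON_7607 lowest and mouse WT_CON_7605 highest. The levels in NRF2 KO ran from 561 through 736 to 912 CPM on Con and from 217 through 533 to 705 CPM on MR. The log2 fold change on MR was -0.07 (95% interval -0.90 to 0.75) in WT, with an adjusted p of 0.933 by edgeR's quasi-likelihood test and Benjamini-Hochberg adjustment, and it was 0.22 without mouse WT_CON_7605 and -0.30 when WT_CON_7607 was left out. It was -0.58 (95% interval -1.33 to 0.18) in NRF2 KO, with an adjusted p of 0.324 by the same edgeR test.

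Hal (chr10:93488768-93519304, plus strand, 20 exons), the histidine ammonia-lyase that opens histidine breakdown, was at 268, 225, 452, 83.4 and 107 CPM in WT Con and at 181, 280, 289, 191 and 313 CPM in WT MR. The coefficient of variation was 65.1% for WT Con and 23.9% for WT MR, and the WT Con mice fell in the same order as for Gls2. In NRF2 KO the lowest, median and highest values were 113, 183 and 245 CPM on Con and 115, 216 and 253 CPM on MR, which overlapped over nearly their whole range. Its log2 fold changes on MR were 0.14 (95% interval -0.65 to 0.93) in WT and 0.16 (-0.56 to 0.88) in NRF2 KO, and the former was -0.06 without the library labelled WT_CON_7607 and 0.55 without mouse WT_CON_7605. The NRF2 KO value of Hal was 0.057 without mouse KO_CON_7622 and 0.28 without mouse KO_MR_7629.

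Gls2 (chr10:128194457-128210004, plus strand, 18 exons), the liver glutaminase that frees ammonia from glutamine for urea synthesis, was at 199, 182, 276, 106 and 140.0 CPM in WT Con and at 198, 234, 243, 161 and 230.0 CPM in WT MR. WT Con again held both the lowest and the highest mouse. For Gls2 the NRF2 KO mice ran from 149 through 183 to 222 CPM on Con and from 146 through 211 to 240.2 CPM on MR, and the log2 fold changes on MR were 0.24 (95% interval -0.15 to 0.63) in WT and 0.14 (-0.21 to 0.50) in NRF2 KO. The WT value was 0.10 when WT_CON_7607 was left out and 0.44 when WT_CON_7605 was, and the NRF2 KO value 0.089 without KO_CON_7621 and 0.22 without KO_MR_7629. The last exon of Gls2 overlaps Spryd4 on the opposite strand, and the strand setting of the counting is not given in the sources used here.

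Hsd17b13 (chr5:103955440-103977410, minus strand, 7 exons) encodes a lipid droplet protein of hepatocytes. It was at 572, 714, 541, 381 and 316 CPM in WT Con and at 666, 676, 724, 634 and 623 CPM in WT MR. 4 of the 5 WT Con mice lay below all WT MR mice, and mouse WT_CON_7603 lay among them. In NRF2 KO it ran from 428 through 600.1 to 642 CPM on Con and from 586 through 691 to 748 CPM on MR. The log2 fold change on MR was 0.40 (95% interval 0.09 to 0.71) in WT and 0.23 (-0.05 to 0.51) in NRF2 KO, with adjusted p of 0.0797 and 0.298 by edgeR's quasi-likelihood test and Benjamini-Hochberg adjustment. In WT it passed with scaling by library size only (log2 fold change 0.52, adjusted p 0.00655 in edgeR), with the deposited normalised values in limma, and without mouse WT_CON_7603, and in NRF2 KO with scaling by library size only.

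Loss of hepatic NRF2 gave no called change in any of the 10 genes on either diet. Over all genes tested, edgeR called 2.07% on Con and 1.93% on MR, so that 0 of 10 is near the background. On Con the log2 difference between NRF2 KO and WT lay between -0.35 (Hal) and 0.30 (Cyp2e1), the latter with a 95% interval of 0.01 to 0.60. The value of Hal was 0.058 without mouse WT_CON_7605, and that of Cyp2e1 was 0.19 without mouse KO_CON_7623. Gls2 had a difference of 0.02 on Con, which was -0.12 without the library labelled WT_CON_7607. On MR, Rgn differed by 0.36 (95% interval 0.12 to 0.61, adjusted p 0.121 in edgeR), and 5 of the 6 NRF2 KO MR mice lay above all 5 WT MR mice. Lect2 differed by 0.29 (95% interval 0.04 to 0.54), and Cyp2f2 by -0.85 (-1.64 to -0.06) with an adjusted p of 0.316 in edgeR. In the test of the interaction of genotype and diet, edgeR called 0.045% of all genes and none of the 10, and the widest 95% interval, that of Cyp2f2, ran from -1.62 to 0.61. The interaction of Gls2 was -0.10, and 0.04 without that library. These intervals do not show that the genotypes responded alike.

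For Rgn, Lect2 and Glul the group means had NRF2 KO Con highest and WT Con next. For Rgn they were 1031 ± 152 CPM (SD, n = 6) in NRF2 KO Con, 925 ± 119 CPM (n = 5) in WT Con, 725 ± 109 CPM (n = 6) in NRF2 KO MR and 563 ± 75.2 CPM (n = 5) in WT MR. The Con means differed by less than their SD, and the MR means by more. For Glul the order of the MR groups was the reverse, 752 ± 74.7 CPM (n = 5) in WT MR and 672 ± 107 CPM (n = 6) in NRF2 KO MR, which differed by less than the SD of the latter.

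To see whether both sets lean one way within a liver, the mean log2 CPM of the 4 periportal genes was subtracted from that of the 6 pericentral genes in each mouse. This balance averaged -0.64 ± 0.88 (SD) for the 5 WT Con mice and -1.23 ± 0.45 for the 5 WT MR mice, and -0.50 ± 0.34 for the 6 NRF2 KO Con mice and -0.83 ± 0.40 for the 6 NRF2 KO MR mice. In WT the mean on MR was lower by less than the SD of WT Con, in NRF2 KO by less than the SD of either group, and the mice overlapped. WT Con was the most scattered group, from -1.65 in mouse WT_CON_7605 to 0.43 in the library labelled WT_CON_7607. The latter had the highest balance of all livers. It had the lowest periportal mean, 7.45 log2 CPM, while its pericentral mean, 7.89 log2 CPM, lay below the highest, 8.29 log2 CPM in KO_CON_7623. The left-out mice had the lowest balances, -2.25 for WT_CON_7604 and -2.12 for WT_MR_7612. Their periportal means, 8.86 and 8.49 log2 CPM, lay within the range of the other mice, and their pericentral means were 6.61 and 6.36 log2 CPM, where the 22 mice ran from 7.30 to 8.29.

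**Figure D3:**
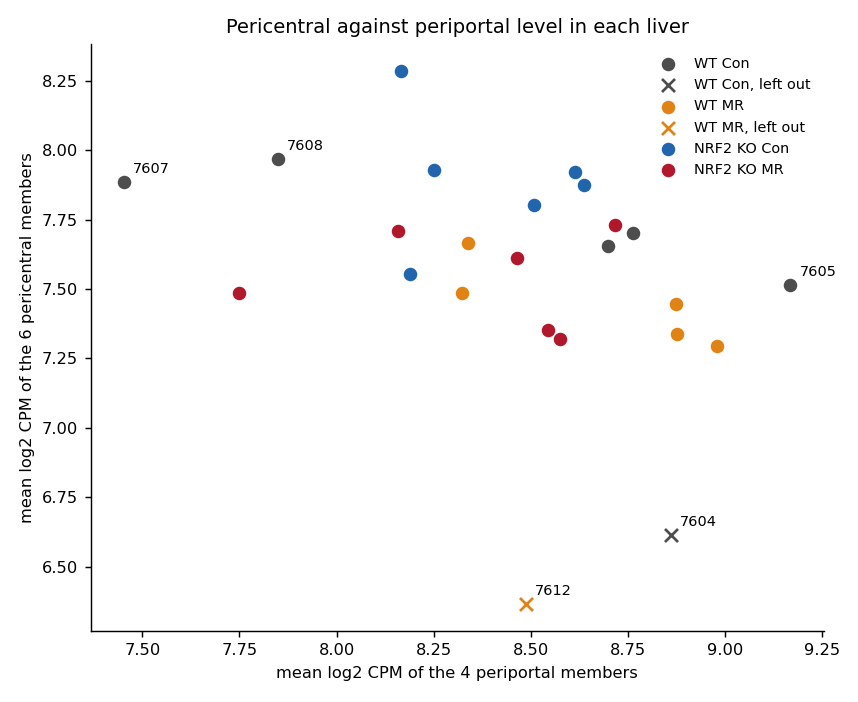
Mean log2 CPM of the 6 pericentral genes (vertical axis) against that of the 4 periportal genes (horizontal axis), 1 point per mouse coloured by group, crosses for the 2 mice left out. The left-out mice, WT_CON_7604 and WT_MR_7612, lie below all others on the pericentral axis, and WT Con spreads from WT_CON_7605 at the right to the library labelled WT_CON_7607 at the left.

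Across mice, with the mean of each group removed, Cyp2f2, Hal and Gls2 varied together. Over the 22 mice Pearson's r was 0.93 for Hal and Gls2 (Spearman's rho 0.82), 0.91 for Cyp2f2 and Gls2 (rho 0.86) and 0.89 for Cyp2f2 and Hal (rho 0.77). Each had a permutation p of 0.00015 for r, and of 0.0012 or less for rho, after Benjamini-Hochberg adjustment over 45 pairs, was at least 0.80 within every one of the 4 groups, and kept an r of 0.84 to 0.87 without the 2 mice farthest from the median of the first gene. Before adjustment the permutation p for r was 1e-05 in each pair, the smallest that the number of permutations allowed. Hsd17b13 was less tied to them, with r from 0.45 to 0.49, none passing the adjustment, and negative values within NRF2 KO Con. The 6 pairs of periportal genes had a mean r of 0.69, and 0.61 without the library labelled WT_CON_7607.

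The 15 pairs of pericentral genes had a mean r of 0.36, with 14 positive. After adjustment over the 45 pairs, 5 passed by the permutation p of Pearson's r and 1 of them, Glul with Slc1a2, by that of Spearman's rho. Glul and Slc1a2, which serve the same pathway, had r = 0.65 (rho 0.66, adjusted permutation p 0.022 for r and 0.027 for rho, r = 0.55 without the 2 farthest mice), but within groups this ranged from -0.26 in WT MR to 0.90 in NRF2 KO MR. Axin2 and Lect2 had r = 0.67 (rho 0.59, adjusted permutation p 0.036 for r and 0.059 for rho, r = 0.49 without the 2 farthest mice), and 0.09 within WT Con. Over all 24 mice the mean r of the pericentral pairs was 0.59, the 2 left-out mice being low in most of these genes. Of the 24 pairs with a gene from each end, 3 were positive, and the mean r was -0.25. The lowest was Lect2 with Cyp2f2 at -0.63 (rho -0.68, adjusted permutation p 0.0048 for r and 0.0031 for rho, r = -0.56 without the 2 farthest mice), which within groups ran from -0.89 in WT MR to -0.12 in NRF2 KO Con. All pairs come from the same libraries, and shared depth and composition are part of each value.

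**Figure D4:**
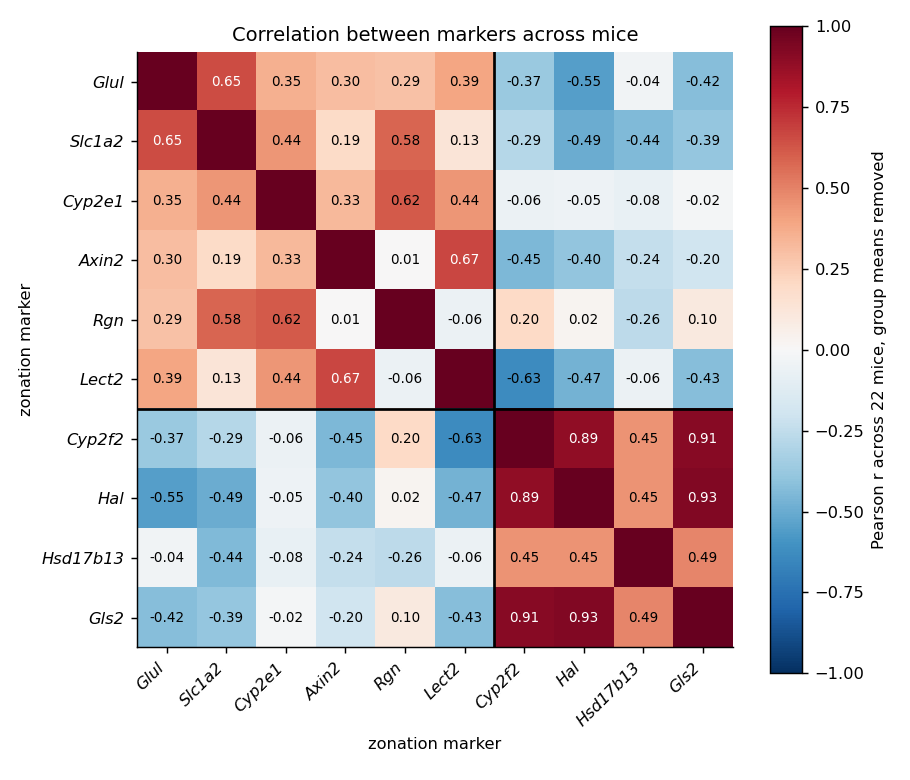
Pearson's r between each pair of genes over the 22 mice after removal of group means, on a colour scale from -1 to 1, with lines dividing pericentral from periportal genes. Cyp2f2, Hal and Gls2 form the strongest block, at 0.89 to 0.93, and most pairs with a gene from each end are below 0.

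Without removal of group means, the genes most like a marker were sought among 11997 genes with at least 1 CPM on average, by Pearson's r of log2 CPM over the 22 mice. For Glul these were Dip2a (0.91), Slc1a2 (0.81), Pyroxd2 (0.78), Ckap4 (0.78) and Chrna2 (0.77). For Gls2 they were Hal (0.90), Ctnnbip1 (0.89), Sfxn1 (0.84), Ndrg2 (0.83) and Amdhd1 (0.83), the last a further enzyme of histidine breakdown. For Cyp2f2 they were Pigr, Gm4956, Mdh1, Nox4 and Otc, a urea cycle enzyme, all between 0.89 and 0.91. For Axin2 the highest was Gmnn at 0.75, followed by Txndc5, Calml4, Sec23a and Adcy6 at 0.71 to 0.73.

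Wider lists of zonated genes were compiled from general knowledge. Their genes called on MR went both ways, except in the periportal list in NRF2 KO, where all fell. Of 32 further pericentral genes tested, 5 rose and 6 fell on MR in WT (median log2 fold change -0.03), and 4 rose and 5 fell in NRF2 KO (median -0.14). The shares called were 34.4% and 28.1%, where 13.8% and 12.6% of all genes tested were called. Oat and Rhbg fell in both genotypes. Oat, the ornithine aminotransferase, which makes glutamate in the cells that express Glul, was at 309, 530.4, 321, 560.4 and 581 CPM in WT Con and at 288, 167, 276, 243 and 287 CPM in WT MR, so that no WT MR mouse reached WT Con. In NRF2 KO the lowest, median and highest values of Oat were 316, 385 and 551 CPM on Con and 93.6, 191 and 271 CPM on MR, again without overlap. Oat fell by 0.87 (log2, SE 0.27) in WT and by 1.14 (SE 0.25) in NRF2 KO, with adjusted p of 0.0363 and 0.00496 by edgeR's quasi-likelihood test and Benjamini-Hochberg adjustment. The WT call was lost over all 24 mice, with scaling by library size only and without any 1 of the mice WT_CON_7603, WT_CON_7607, WT_CON_7608, WT_MR_7609, WT_MR_7611, WT_MR_7613, WT_MR_7615 and WT_MR_7616. The last exon of Oat lies within a gene model of Fgfr2 on the same strand.

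Rhbg, an ammonium transporter of pericentral hepatocytes, was at 6.58, 13.1, 13.99, 7.08 and 8.19 CPM in WT Con and at 4.45, 6.13, 7.95, 3.31 and 5.44 CPM in WT MR. Only the highest WT MR mouse lay among the WT Con mice. In NRF2 KO it ran from 4.81 through 9.52 to 12.4 CPM on Con and from 3.84 through 5.05 to 6.49 CPM on MR, the lowest Con mouse lying within the MR range. Rhbg fell by 0.82 (log2, SE 0.25) in WT and by 0.84 (SE 0.22) in NRF2 KO, with adjusted p of 0.031 and 0.016 by edgeR's quasi-likelihood test and Benjamini-Hochberg adjustment, and the WT call was lost without any 1 of the mice WT_CON_7603, WT_CON_7605, WT_MR_7609, WT_MR_7615 and WT_MR_7616. Its last exon overlaps the gene model Gm38392 on the same strand.

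The further pericentral genes that rose included enzymes of drug, bile acid and retinoid handling. Cyp2a5, a cytochrome P450 that oxidises nicotine and coumarin, rose by 2.92 (log2, SE 0.36) in WT and by 1.29 (SE 0.31) in NRF2 KO, and Gstm3, a glutathione transferase, by 2.38 (SE 0.54) and 1.93 (SE 0.51). Both were lower in NRF2 KO than in WT on MR, with log2 fold changes of -2.71 for Cyp2a5 and -3.04 for Gstm3, and Gstm3 also on Con (-2.59, and -1.70 without mouse WT_CON_7608). Between genotypes on MR, 4 of the 32 further pericentral genes were lower in NRF2 KO and 0 higher. That share was 12.5%, against 1.93% of all genes tested. On Con 1 of the 32 was lower and 0 higher, a share of 3.12% against 2.07%. Cyp2a5 and Gstm3 have close relatives in the genome, and reads could have been shared with them. In WT, Cyp7a1, the rate-limiting enzyme of bile acid synthesis, rose by 1.84 (SE 0.55) and Csad, of taurine synthesis, by 1.58 (SE 0.47). The call of Cyp7a1 was lost without any 1 of the mice WT_CON_7602, WT_CON_7603, WT_CON_7605, WT_CON_7607, WT_MR_7609, WT_MR_7615 and WT_MR_7616, and that of Csad without WT_CON_7603, WT_CON_7605, WT_CON_7607 or WT_MR_7616. In NRF2 KO, Rdh9, a retinol dehydrogenase, rose by 1.03 and Znrf3, a membrane ubiquitin ligase that removes Wnt receptors, by 0.48. The call of Rdh9 was lost over all 24 mice and without any 1 of the mice KO_CON_7617, KO_CON_7618, KO_CON_7620, KO_CON_7621, KO_MR_7628, KO_MR_7629 and KO_MR_7631.

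Among the further pericentral genes that fell, Avpr1a, a vasopressin receptor, had a log2 fold change of -0.74 in WT and Cldn2, a tight junction protein, of -0.62. In NRF2 KO, Aldh1a1, a retinal dehydrogenase (-0.65), and Akr1c6, a hydroxysteroid dehydrogenase (-0.48), fell, and Aldh1a1 was also lower in NRF2 KO than in WT on MR (-0.98). The call of Avpr1a was lost without any 1 of 8 mice, among them the library labelled WT_CON_7607 (log2 fold change -0.49 without it). It was also lost over all 24 mice with and without quality weights, with library size only, with limma on the deposited values and in the fit of only the groups compared. The calls of Oat, Slc13a3 and Lhpp were also lost over all 24 mice. In the fit of only the groups compared, the WT calls of Gstm3, Cyp7a1, Csad, Rhbg and Lhpp were lost, as was that of Gstm3 between genotypes on Con. The number called lower in WT ran from 2 (without mouse WT_CON_7608) to 6, and that called higher from 2 (without mouse WT_CON_7603) to 7.

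**Figure D5:**
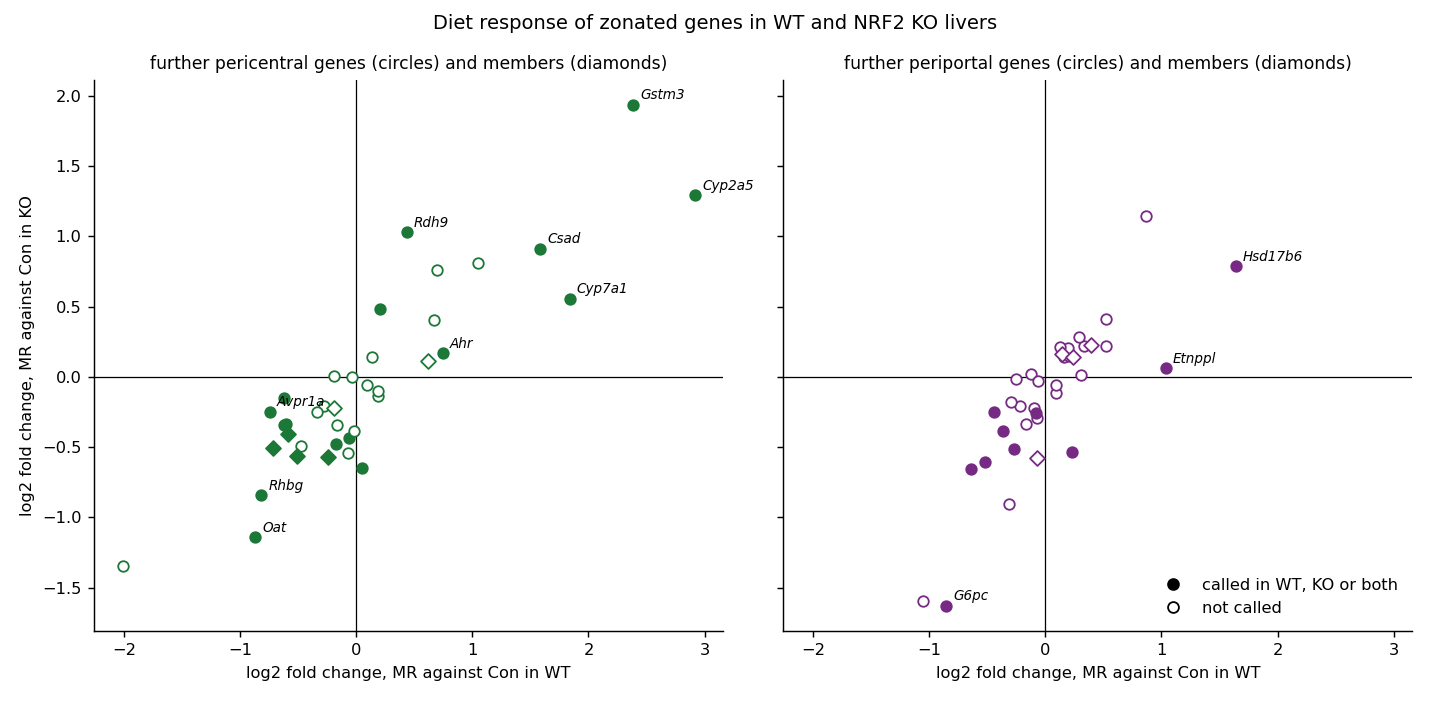
Log2 fold change on MR in WT (horizontal axis) and in NRF2 KO (vertical axis) of further pericentral genes (left) and further periportal genes (right) as circles, with the 10 described genes as diamonds. Filled symbols were called in WT, NRF2 KO or both: Oat and Rhbg lie low in both genotypes, Cyp2a5 and Gstm3 high in both, and G6pc is the lowest called periportal gene.

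Of 32 further periportal genes tested, 2 rose and 2 fell on MR in WT (median log2 fold change -0.07), and 0 rose and 7 fell in NRF2 KO (median -0.08). The shares called, 12.5% in WT and 21.9% in NRF2 KO, compare with 13.8% and 12.6% of all genes. Over the alternatives other than single omissions, 4 to 10 genes were called lower and 0 to 3 higher in NRF2 KO. Scaling by library size only moved both of these counts. The number called lower in WT ran from 0 (without mouse WT_CON_7605) to 4 (without mouse WT_CON_7608, KO_CON_7617 or KO_CON_7620) over single omissions, and was 6 by DESeq2, 5 with at least 10 counts required in every mouse and 0 with library size only. In WT, Hsd17b6, a steroid dehydrogenase, rose by 1.64 (log2, SE 0.34) and Etnppl, which breaks down phosphoethanolamine, by 1.04 (SE 0.30), while Agxt, which detoxifies glyoxylate, fell by 0.44 and the growth factor Igf1 by 0.36. The call of Etnppl was lost over all 24 mice and without any 1 of the mice WT_CON_7603, WT_CON_7607, WT_CON_7608, WT_MR_7613 and WT_MR_7616, that of Igf1 without WT_CON_7602, WT_CON_7605, WT_MR_7609, WT_MR_7611 or WT_MR_7615, and that of Agxt without WT_CON_7605 or WT_MR_7616. Those of Igf1 and Agxt in WT were also lost with library size only, and those of Etnppl and Igf1 in the fit of only the groups compared. In NRF2 KO, G6pc, the last enzyme of glucose production, fell by 1.63 (SE 0.27), and Fbp1, an earlier enzyme of the same pathway, by 0.53 (SE 0.13). Acly, which makes acetyl-CoA for fatty acid synthesis, fell by 0.66 (SE 0.20) and Ftcd, of histidine breakdown, by 0.60 (SE 0.17). The call of Acly was lost over all 24 mice, with library size only, with limma on the deposited values and without any 1 of the mice KO_CON_7617, KO_CON_7621, KO_MR_7625, KO_MR_7628, KO_MR_7629, KO_MR_7631 and KO_MR_7632, and the number called lower in NRF2 KO ran from 3 (without mouse KO_CON_7617) to 8. Igf1 also fell on MR in NRF2 KO, with a log2 fold change of -0.38. That call held in every single omission and was lost with library size only. Etnppl was lower in NRF2 KO than in WT on MR, with a log2 fold change of -1.46 (SE 0.29). It was the only 1 of the 32 called between genotypes on MR (3.12%), and 0 were called on Con.

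Of 4 genes of histidine breakdown tested, 2 fell in NRF2 KO on MR, Ftcd and Uroc1 (-0.51, SE 0.16), and 0 were called in WT. Over all genes 12.6% were called in NRF2 KO, 6.34% lower, and 13.8% in WT. In WT 1 of the 4 was called lower by DESeq2, in the fit of only the groups compared, over all 24 mice and without mouse WT_CON_7608, KO_CON_7620, KO_CON_7623 or KO_MR_7629. The first enzyme, Hal, did not pass in either. Without mouse KO_CON_7617, KO_CON_7618, KO_CON_7620 or KO_MR_7629 neither Ftcd nor Uroc1 was called, and the call of Uroc1 was also lost with limma on the deposited values, in the fit of only the groups compared and without any 1 of 4 further mice. Some of the 17 genes of glutamine and glutamate metabolism tested are among the 10 genes or on the lists above. Their counts therefore partly repeat calls already given. Of the 17, 3 rose and 2 fell in WT and 4 rose and 5 fell in NRF2 KO. The shares were 29.4% and 52.9%, where 13.8% and 12.6% of all genes tested were called. Those that rose were led by Asns, asparagine synthetase, with log2 fold changes of 4.09 (SE 0.24) in WT and 3.86 (SE 0.22) in NRF2 KO, followed by Aldh18a1, of proline synthesis, with 1.90 (SE 0.36) and 1.499 (SE 0.33). In NRF2 KO the glutamine transporter Slc1a5 rose by 0.88 and Got1, the cytosolic aspartate aminotransferase, fell by 0.44. The call of Slc1a5 was lost without any 1 of 7 mice, and that of Got1 without any 1 of 10 mice, with library size only and with limma on the deposited values. The number called lower in WT ran over single omissions from 0 (without mouse WT_CON_7603, WT_MR_7609, WT_MR_7615 or WT_MR_7616) to 4 (without mouse WT_CON_7602), and that in NRF2 KO from 3 (without mouse KO_CON_7618, KO_MR_7627, KO_MR_7628 or KO_MR_7629) to 6.

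Of 40 genes of the Wnt pathway tested, 0 rose and 3 fell on MR in WT: the ligand Wnt4 by 0.78 (log2, SE 0.22), the co-receptor Lrp5 by 0.44 (SE 0.12) and the beta-catenin partner Bcl9 by 0.61 (SE 0.18). Without mouse WT_MR_7616 none of these was called, Bcl9 was also not called without any 1 of 5 other mice, and Lrp5 and Bcl9 were not called with library size only, nor Lrp5 over all 24 mice, nor Bcl9 in the fit of only the groups compared. Wnt4 was also not called without mouse WT_CON_7603, nor Lrp5 without mouse WT_MR_7613. In NRF2 KO 2 rose and 0 fell, Znrf3 and the signal transducer Dvl1 (0.36, SE 0.10), the latter not without any 1 of the mice KO_CON_7617, KO_MR_7625, KO_MR_7627 and KO_MR_7629. The shares called, 7.5% in WT and 5.0% in NRF2 KO, lay below the 13.8% and 12.6% of all genes tested, though with library size only 9 genes were called higher in NRF2 KO. None was called between genotypes. The 6 markers of central vein endothelium, which include the ligands Wnt2 and Wnt9b and the R-spondin Rspo3, were all detected, with Rspo3 the most abundant, and 0 of 6 were called in any comparison by edgeR. Their summed level had a median of 45.8 CPM in WT Con, 41.4 CPM in WT MR, 36.8 CPM in NRF2 KO Con and 40.6 CPM in NRF2 KO MR, and the ranges of the 4 groups overlapped.

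Markers of some other cells were called on MR, against 13.8% of all genes in WT and 12.6% in NRF2 KO. Of 6 stellate cell markers, 5 were lower on MR in WT and 3 in NRF2 KO, and their summed level, in which Dcn is the most abundant, had a median of 530 CPM in WT Con, 412 CPM in WT MR, 548 CPM in NRF2 KO Con and 491 CPM in NRF2 KO MR. Of 5 bile duct markers, 4 were lower on MR in WT and 1 in NRF2 KO, with summed medians of 54.1, 25.6, 39.7 and 25.3 CPM in the same order and Sox9 the most abundant. Of the hepatocyte markers 1 of 6, Apoa1, fell in both genotypes. In each genotype 1 of 5 red blood cell markers, Alas2, was lower on MR, and in WT so were 1 of 5 Kupffer cell markers, Cd5l, and 1 of 3 neutrophil markers, Retnlg. Of 6 sinusoidal endothelial markers 1, Kdr, was higher on MR in NRF2 KO. No tested marker of portal endothelium, B cells, T and NK cells or adipose tissue was called on MR, and pancreatic acinar markers were too low to be tested, although their summed level reached 28.1 CPM in 1 NRF2 KO MR mouse. Between genotypes, the bile duct marker Spp1 was lower in NRF2 KO than in WT on Con (log2 fold change -0.90) and Apoa1 was higher on MR (0.50). The part of these cells in the levels of the zonation genes was not tested.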

How the data were processed

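Liver RNA of 24 mice was sequenced by QuantSeq, 1 library per mouse. The deposited table of raw counts was made by the authors with the Lexogen QuantSeq pipeline (forward reads) on the Bluebee platform, and GRCm38 and mm10 are named in the submitters' processing notes. The aligner, the annotation and the strand setting are not given in the sources used here. A second deposited table, of unit signal, holds the same counts divided by 1 size factor per mouse, for which the notes name DESeq2 1.18.1 in R 3.4.3. Its values matched the raw counts divided by 1 factor per mouse to a relative deviation of at most 5.1e-15.

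The counts were tested with edgeR 4.0.16 in R 4.3.3: TMM scaling, filterByExpr (1824 genes removed), robust quasi-likelihood fit, 1 mean per group over 22 mice, and Benjamini-Hochberg adjustment over 13336 genes at 0.05. The groups share 1 estimate of the spread. Log2 CPM used a prior count of 2. The exact permutation test was two-sided on log2 CPM, and 40 such tests were made. The lowest total count of any of the 10 genes over all mice was 1239, and median depth was 14860992, 11538109, 15514868 and 16173154.5 counts in WT on Con, WT on MR, NRF2 KO on Con and NRF2 KO on MR (22 mice). Each mouse is a sample, and the labels name no batch. On data simulated for MR in WT with 13178 genes, 90 of 100 genes changed by a log2 fold of 1 and 61 of 100 changed by 0.6 were recovered, with 7 false calls. No other genes were changed and none of those changed had the lowest levels, while edgeR called 13.8% of genes in the real comparison. The simulated rates are therefore not the rates of the real test.

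The members and lists were chosen with earlier results of these data known. Named were the 10 genes, genes of each list called in a comparison, with values for at most 4 per list and direction by size, the 5 genes most like Glul, Axin2, Cyp2f2 and Gls2, and Nfe2l2. A called gene of the further pericentral list is not reported here. The lists were further pericentral and periportal genes, the Wnt pathway, histidine breakdown, glutamine and glutamate, and markers of hepatocytes, central vein, portal and sinusoidal endothelium, Kupffer, stellate, bile duct and B cells, red blood cells, T and NK cells, adipose tissue, neutrophils and pancreatic acini. Gene positions are from GENCODE M21 and promoters from RefSeq. Alternatives were DESeq2 1.42.0 and its size factors, library size only, other count filters, limma 3.58.1 on the deposited normalised values (log2 of value plus 1), only the groups compared, all 24 mice with and without quality weights, and each mouse left out. Permutation p for relations between genes, with mice permuted within groups, were added after seeing the data.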

Additional observations from a re-analysis of the deposited data

Results flagged for a closer look

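Among 56 sets of a gene or balance value in 1 group, 2 held a mouse far from the others, where chance alone gives about 1 in 20. Axin2 was at 8.90 CPM in WT_MR_7609 and at 3.03 CPM in the next WT MR mouse, a gap of 0.948 of the range of the group against a critical value of 0.71. Nfe2l2 was at 324 CPM in the library labelled WT_CON_7607 and at 125 CPM in the next WT Con mouse, a gap of 0.914 of the range. In that library Cyp2f2, Hal and Gls2 were the lowest of the WT Con mice and Glul and Lect2 the highest. The paper reports a real time PCR check of genotype in every mouse. Whether the genotype label of this library holds was not tested here.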

How the results depend on the processing

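The falls of Rgn and Lect2 in WT kept their direction and stayed past the threshold under every alternative run. Those of Glul, Slc1a2, Rgn and Lect2 in NRF2 KO kept their direction under every alternative, and none was called over all 24 mice. The number of pericentral genes called lower in NRF2 KO was 0 over all 24 mice, and 2 with quality weights and with library size only. With library size only the median log2 fold change of all genes shifted to 0.09 in WT and 0.15 in NRF2 KO, 1 periportal gene was called in each genotype, and 2785 genes were called for MR in NRF2 KO. Log2 fold changes then turned to 0.064 for Cyp2f2 on MR in WT, -0.050 for Slc1a2 between genotypes on Con, and 0.037 for Slc1a2 and 0.029 for Cyp2e1 in the interaction. DESeq2 called 449, 484 and 33 genes for genotype on Con, on MR and the interaction, where edgeR called 276, 258 and 6, and fits of only the groups compared called 99 and 600 genes for genotype on Con and on MR. DESeq2 called 3 pericentral genes lower in WT, Slc1a2 being the third. With limma on the deposited values 1 periportal gene was called in WT, Cyp2f2 on MR in WT was 0.046, and the interactions of Cyp2e1 and Hal were 0.0091 and -0.18. Over all 24 mice, genotype differences were -0.061 for Gls2 on Con and 0.028 for Glul, 0.15 for Slc1a2 and -0.089 for Hsd17b13 on MR, and the mean r of pericentral pairs was 0.59. With quality weights Cyp2f2 on MR in WT was 0.0074, Slc1a2 between genotypes on MR 0.023 and the Hal interaction -0.24, with 2693 genes called for MR in NRF2 KO and 604 for genotype on MR. The causes were not tested.

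With each mouse left out in turn, 1416 to 1974 genes were called for MR in WT, 1188 to 2027 for MR in NRF2 KO, 181 to 314 and 191 to 336 for genotype on Con and MR, and 3 to 12 for the interaction. Of the pericentral genes 2 to 3 were called lower in WT and 2 to 4 in NRF2 KO, of the periportal genes 0 to 1 in WT and 0 in NRF2 KO, and 0 of the 10 for genotype or interaction. On MR, Cyp2f2 ran from -0.30 to 0.22, Hal from -0.065 to 0.55 and Gls2 from 0.10 to 0.44 in WT, and Axin2 from -0.0034 to 0.25 in NRF2 KO. Between genotypes on Con, Slc1a2 ran from -0.12 to 0.19, Hal from -0.56 to 0.058 and Gls2 from -0.12 to 0.22. On MR, Slc1a2 ran from -0.13 to 0.028, Axin2 from -0.49 to 0.20, Hsd17b13 from -0.0055 to 0.064 and Gls2 from -0.16 to 0.0041. In the interaction, Slc1a2 ran from -0.23 to 0.078, Cyp2e1 from -0.14 to 0.084, Axin2 from -0.65 to 0.042, Hal from -0.39 to 0.22 and Gls2 from -0.30 to 0.039. No paired analysis was possible because the labels do not pair mice across groups. The paper describes the WT mice as littermates of the NRF2 KO mice, but the labels give no litter, so litter could not be modelled.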
